A study of Mus musculus with 4 samples.

Results

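Oxytocin and vasopressin neurons were described from single-nucleus RNA counts of the paraventricular nucleus (PVN), a hypothalamic nucleus, of mice. A nucleus was selected when its barcode held at least 2000 UMIs (unique molecular identifiers, 1 per captured RNA molecule) and 500 genes, at most 5% mitochondrial UMIs, and at least 5 of the 7 neuronal genes Snap25, Syt1, Rbfox3, Meg3, Snhg11, Celf4 and Grin2b. Oxt and Avp together also had to reach 10 UMIs and 0.2% of the barcode's UMIs. This rule took 52 of 15033 neuronal nuclei, from 31109 barcodes in all. By the larger of the 2 counts, 31 nuclei were Oxt type and 21 were Avp type, and no nucleus had equal counts. Each library pooled micropunched PVN tissue of 5 male C57Bl6 mice, aged 10 weeks in the sample labels and up to 12 weeks in the design text. There were 2 libraries at zeitgeber time 8 (ZT8, in the day) and 2 at ZT20 (in the night). Zeitgeber time counts hours from lights on. The labels name no genotype or agent, and a pool is 1 replicate whatever its number of mice.

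Oxytocin and vasopressin are short peptide hormones made as large precursors, which are cut and amidated in dense-core vesicles. Magnocellular neurons send them to the posterior pituitary for release into the blood, where vasopressin retains water and oxytocin drives milk ejection and uterine contraction. Parvocellular neurons of the same nucleus send them to other brain regions and, for vasopressin, to the pituitary portal vessels. The transcription factors Sim1, Otp, Pou3f2 and Arnt2 specify these neurons during development.

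Oxt and Avp are sister genes on chromosome 2 of mm10 that point at each other. In GENCODE M21, Oxt (ENSMUSG00000027301) lies on the plus strand at chr2:130576173-130577054 and Avp (ENSMUSG00000037727) on the minus strand at chr2:130580620-130582554, with 3565 bases between them. Their upstream sequences are shown because these neighbours define the nuclei and were nearly exclusive of each other within them. Each run gives the 250 bases before the RefSeq start, 5′ to 3′ on the gene's strand, from GRCm38.p6 at chr2:130575919-130576168 for Oxt and chr2:130582589-130582838 for Avp. Capitals mark matches to the searched motifs.
Oxt: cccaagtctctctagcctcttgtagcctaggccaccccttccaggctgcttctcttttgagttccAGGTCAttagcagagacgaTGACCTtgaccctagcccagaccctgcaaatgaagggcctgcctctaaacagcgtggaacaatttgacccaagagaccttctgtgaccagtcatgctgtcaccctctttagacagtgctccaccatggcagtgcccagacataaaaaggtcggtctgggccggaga
Avp: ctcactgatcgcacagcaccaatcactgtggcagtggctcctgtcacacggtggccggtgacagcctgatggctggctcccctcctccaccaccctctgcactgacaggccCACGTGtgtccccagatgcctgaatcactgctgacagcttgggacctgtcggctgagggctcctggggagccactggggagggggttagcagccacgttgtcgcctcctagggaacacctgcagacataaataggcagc

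Motifs of known regulator classes were searched on both strands, and their matches do not overlap. AGGTCA, the half-site of nuclear receptors such as the estrogen and thyroid hormone receptors, matched Oxt 2 times, as AGGTCA 185 to 180 bases and as TGACCT 166 to 161 bases before the start. CACGTG, the E-box read by CLOCK and BMAL1, matched Avp 1 time, 139 to 134 bases before the start. TGACGTCA, the full cAMP response element, was in neither window. Of 32851 RefSeq windows of that length, 14.0% held the half-site, 6.02% the E-box and 1.55% the response element. A match is a description of the letters and not a shown binding site.

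The 2 peptides separated the nuclei sharply. Oxt type nuclei held 10 to 321 Oxt UMIs (median 119) and 0 to 8 Avp UMIs (median 0). Avp type nuclei held 15 to 512 Avp UMIs (median 51) and 0 to 3 Oxt UMIs (median 1). These counts chose the nuclei and are given with no test. The lesser peptide exceeded 3 UMIs in 2 of 52 nuclei. One of them was a shallow ZT8 nucleus of 3855 UMIs with 10 Oxt and 8 Avp UMIs, the nearest to a mixed profile.

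**Figure D1:**
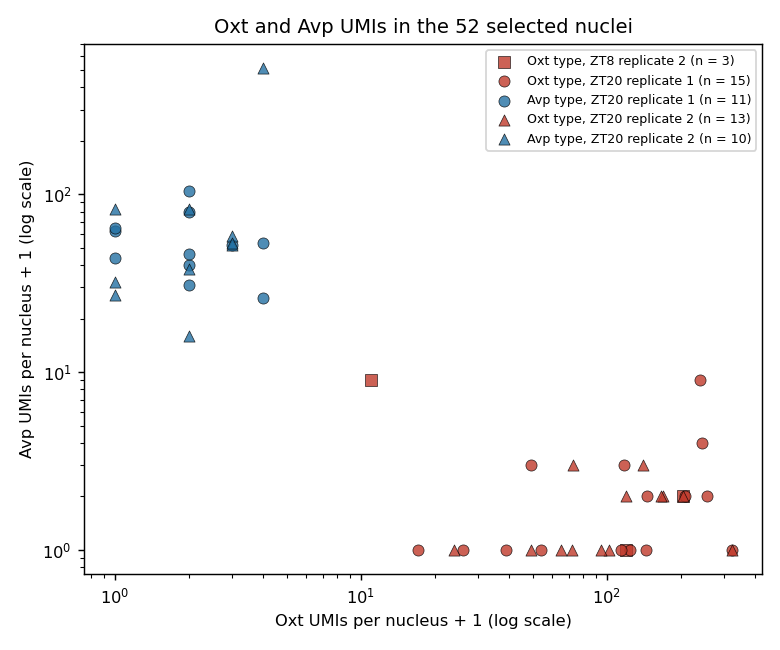
Each point is 1 of the 52 selected nuclei, with its Oxt UMIs + 1 on the x axis and Avp UMIs + 1 on the y axis, both on log scales. Colour gives the type and shape the library; the nuclei form an Oxt arm and an Avp arm, and 1 ZT8 nucleus lies between them.

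Droplets also capture free RNA, whatever the nucleus expresses. Oxt in Avp type nuclei sat near its level in neurons outside the selection, while Avp in Oxt type nuclei stood above that level. In Avp type nuclei, Oxt stood at 103 and 102 CPM (UMIs scaled to a common total per library and class) in the 2 ZT20 libraries, beside 104 and 91.9 CPM in neurons outside the selection. In Oxt type nuclei, Avp stood at 73.5 and 48.2 CPM, from 18 and 8 UMIs, beside 14.6 and 15.5 CPM in those other neurons. Oligodendrocyte nuclei of the same libraries held 328 and 336 CPM of Oxt and 50.3 and 41.3 CPM of Avp. How much of the lesser peptide was free RNA was not tested. Detection of Oxt outside the selected nuclei differed by time. An Oxt UMI was found in 8.49% and 14.0% of other neurons at ZT8 and in 68.4% and 64.1% at ZT20. In oligodendrocyte nuclei, which should lack Oxt, the shares were 8.36%, 11.0%, 58.5% and 60.2%, at median depths of 2841 to 3043.5 UMIs against 11438.5 to 13848 in other neurons. How much of the Oxt in other neurons was background and how much was expression was not tested. Selected nuclei held 15.5% and 12.4% of all Oxt UMIs of the ZT20 libraries, and 29.5% and 35.5% of all Avp UMIs. A single nucleus of ZT20 replicate 2 held 512 of that library's 945 Avp type Avp UMIs.

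Neuronal nuclei lay on both sides of the threshold, so it sets the number selected: the mean share at ZT20 was 0.625% here, 1.17% at 5 UMIs and 0.1%, and 0.408% at 20 UMIs and 0.5%. The selected nucleus with the lowest share had 15 Avp UMIs and 1 Oxt UMI of 7245 (0.221%). Just outside stood nuclei with 146 peptide UMIs of 80062 (0.182%) and 51 of 29095 (0.175%), both in ZT20 replicate 2, and a nucleus with 9 Oxt UMIs of 4102. In ZT8 replicate 1 the nearest nucleus had 16 Avp UMIs of 10508 (0.152%) with 4 Sim1 UMIs.

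Nearly all selected nuclei came from the night libraries. ZT20 replicate 1 gave 26 nuclei (15 Oxt type, 11 Avp type) of 3959 neuronal nuclei, a share of 0.657% with an exact Clopper-Pearson 95% interval of 0.429 to 0.961%. ZT20 replicate 2 gave 23 (13 and 10) of 3883, a share of 0.592% (0.376 to 0.887%). ZT8 replicate 2 gave 3, all Oxt type, of 3822, or 0.0785% (0.0162 to 0.229%). ZT8 replicate 1 gave 0 of 3369, which allows a share of up to 0.0890% by 3 counts of the total and 0.109% as the exact upper bound. Intervals and limits cover counting error only. The mean share was 0.625% ± 0.0455 (SD, n = 2) at ZT20 and 0.0392% ± 0.0555 (SD, n = 2) at ZT8, and the groups did not overlap. An exact two-sided permutation test gave p = 0.333, the smallest that 2 against 2 libraries allow.

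All Sim1 neurons moved with that share. Neuronal nuclei with at least 2 Sim1 UMIs, selected nuclei included, were 1.40% and 1.54% of neurons at ZT8 (47 and 59 nuclei) and 7.10% and 6.64% at ZT20 (281 and 258). Within Sim1 neurons, selected nuclei were 0 of 47, 2 of 59, 19 of 281 and 20 of 258, or 0% (up to 6.38% by 3 counts of the total, exact upper bound 7.55%), 3.39% (0.413 to 11.7%), 6.76% (4.12 to 10.4%) and 7.75% (4.80 to 11.7%). The mean was 7.26% ± 0.700 (SD, n = 2) at ZT20 and 1.69% ± 2.40 (SD, n = 2) at ZT8, and the groups did not overlap. The exact two-sided permutation test again gave p = 0.333, the smallest possible, and the 47 and 59 nuclei behind the ZT8 values leave wide intervals. Fewer PVN neurons in the ZT8 pools and fewer Oxt or Avp molecules per neuron cannot be told apart for the share of all neurons, and how the punches differed was not tested.

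**Figure D2:**
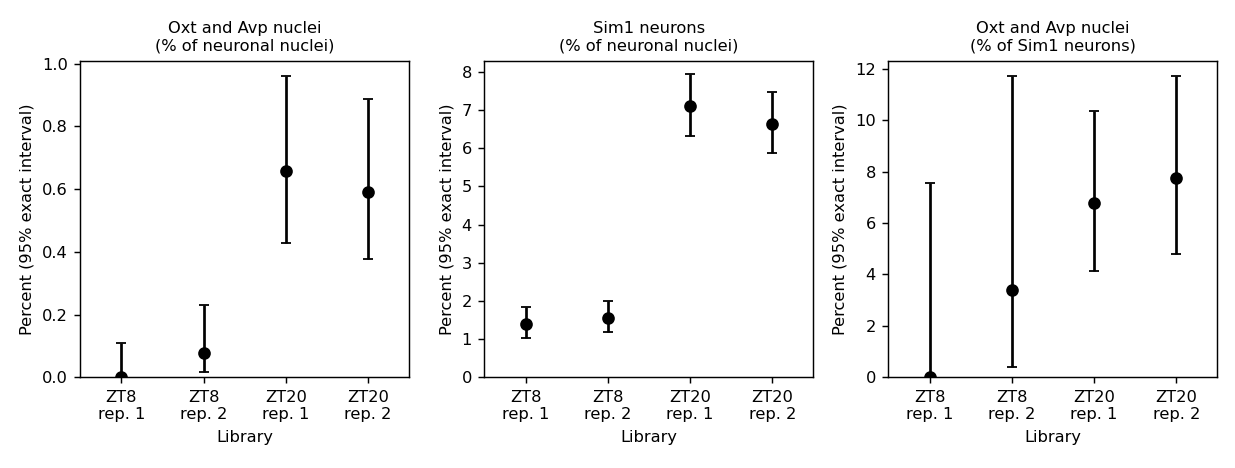
Points give percent per library with exact 95% intervals, for selected nuclei among neuronal nuclei, Sim1 neurons among neuronal nuclei, and selected nuclei among Sim1 neurons. Both ZT20 libraries lie above both ZT8 libraries in each panel, and the ZT8 intervals are widest in the last.

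The label was checked against markers of other cells. Sim1 was found in 20 of 21 Avp type and 22 of 31 Oxt type nuclei. After thinning each nucleus to 2000 UMIs, the expected shares at ZT20 were 75.6% and 42.9%. The 6 markers of the suprachiasmatic nucleus, another home of Avp neurons, summed to 8 UMIs over all 52 nuclei, with Vip, Nms and Six6 at 0. At ZT20 they stood at 8.08 and 17.6 CPM in selected nuclei and at 13.6 and 13.9 CPM in other neurons. They were higher in other Sim1 neurons than in selected nuclei. Since they were low in each of these groups, their sum does not tell the source, which was not tested. Markers of astrocytes summed to 18 UMIs, of endothelium to 2, of microglia to 47 and of lateral and arcuate hypothalamus to 79. Those of oligodendrocytes summed to 416 UMIs and of thalamic neurons to 390, against 698 for the 4 PVN markers. At ZT20, oligodendrocyte markers stood at 393 and 896 CPM in selected nuclei and at 628 and 564 CPM in other neurons. Thalamic markers stood at 735 and 257 CPM in selected nuclei and at 2658 and 2610 CPM in other neurons. The part of these 2 marker sets in the results was not tested. Supraoptic neurons share Oxt, Avp, Sim1, Otp and Pou3f2, so these markers cannot tell them from PVN neurons.

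The 9 Oxt type nuclei without a Sim1 UMI stood apart: 1 came from ZT8 replicate 2, 6 from ZT20 replicate 1 and 2 from ZT20 replicate 2. Otp and Pou3f2 were at 0 in all 9, and Caprin2 was found in 3 of them, against 14, 17 and 19 of the 22 with Sim1. Their oligodendrocyte marker sum was 2 to 72 UMIs (median 11), against 0 to 44 (median 3) in the 22. They were also shallower, with a median of 7417 against 15210 UMIs. Thalamic markers reached 109 UMIs in an Oxt type nucleus that did hold Sim1. The part of doublets or free RNA in these nuclei was not tested, and results below are also given without nuclei that lack Sim1 wherever that ends a call.

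**Figure D3:**
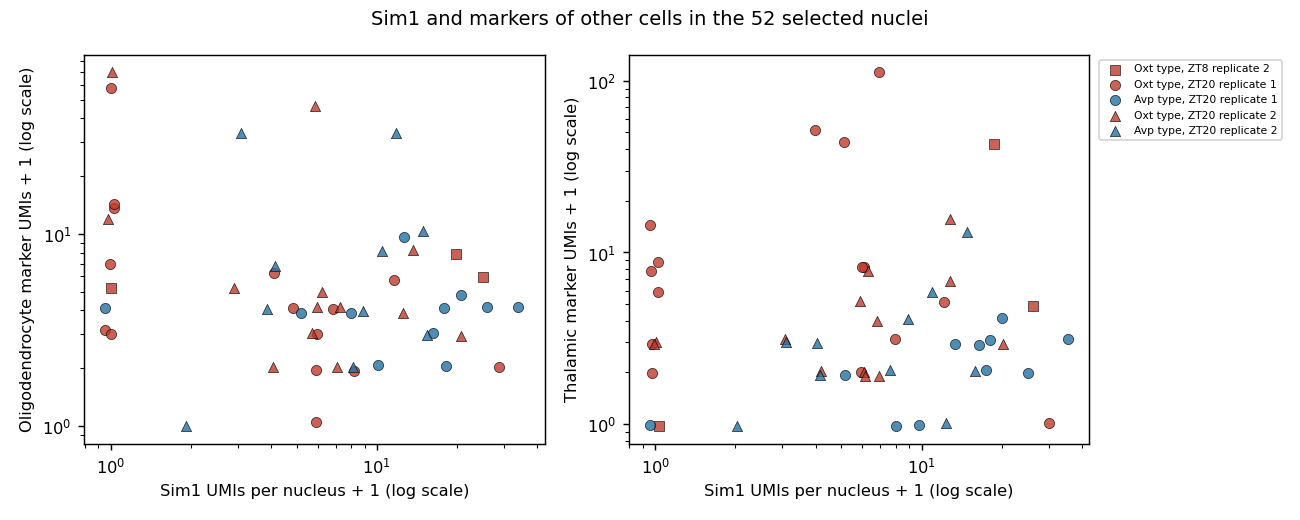
Each point is 1 of the 52 nuclei, with Sim1 UMIs + 1 on the x axis and the summed UMIs + 1 of 5 oligodendrocyte markers (left) or 5 thalamic markers (right) on the y axis, all on log scales with a small seeded jitter. Several Oxt type nuclei at the left edge, without Sim1, carry oligodendrocyte markers up to 72 UMIs.

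Compared with other Sim1 neurons of the same libraries, Oxt and Avp neurons held far more Caprin2 mRNA and more of the factors Pou3f2 and Otp, of the potassium channel subunit Kcnmb4, of prodynorphin and of the convertase Pcsk1 when both types were summed. Nitric oxide synthase Nos1 was also higher in those sums, with nearly all of its UMIs in the Oxt type. Oxt and Avp neurons held less of the granin Scg2, the glucocorticoid receptor Nr3c1, the small-conductance potassium channels Kcnn2 and Kcnn3 and several other peptides. UMIs were summed per ZT20 library over 26 and 23 selected nuclei and over 262 and 238 other Sim1 neurons, and tested with edgeR's quasi-likelihood test with library as a block. Of 13349 genes tested, 6.38% were called at an adjusted p under 0.05, 305 higher and 546 lower (2.28% and 4.09%). Against all 3933 and 3860 other neurons, 5.78% of 18666 genes were called, 320 higher (1.71%) and 759 lower (4.07%). Both fits rest on 2 libraries and 1 residual degree of freedom, with the spread shared across genes, and DESeq2 called fewer genes (243 and 426). The Oxt type alone gave 454 and 520 calls and the Avp type alone 197 and 0. Prior degrees of freedom, the weight edgeR gives the shared spread, were infinite in the main and Oxt type fits. They were 5.20 and 2.59 for the Avp type alone, so its calls are not on the same footing. For the Avp type alone, Caprin2 was not called against other neurons at a log2 change of 4.75 (adjusted p = 0.158). Against other Sim1 neurons, prior degrees of freedom were 15.7 with at least 20 peptide UMIs and 0.5%. They were 66.3 there without nuclei that lack Sim1, so calls lost in these 2 settings are not on the same footing either. The other Sim1 neurons carried 1424 and 1446 CPM of thalamic markers, beside 735 and 257 CPM in selected nuclei; the part of this in the lower genes was not tested.

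Among the 8 PVN transcription factors, 3 of 6 tested rose against other Sim1 neurons and none fell. Of all genes tested, 2.28% rose and 4.09% fell. The median log2 change was 0.95 for the factors, beside -0.04 over all genes tested. Pou3f2 was at 88.3 and 117 CPM in selected nuclei and at 17.4 and 19.7 CPM in other Sim1 neurons, a log2 change of 2.45 (SE 0.29, adjusted p = 1.8e-15). Otp stood at 48.2 and 41.4 against 16.5 and 19.1 CPM (log2 change 1.35, SE 0.38, adjusted p = 0.00971). Arnt2, the dimer partner of SIM1, differed least, at 235 and 245 against 165 and 162 CPM (log2 change 0.55, adjusted p = 0.0224). Arnt2 hardly differed for the Oxt type alone (log2 change 0.098, adjusted p = 0.936). It was not called for the Avp type alone (adjusted p = 0.0736), without a filter on low counts (0.101) or with the 3 ZT8 nuclei added (0.0783). Otp was called for the Oxt type alone but not for the Avp type alone (adjusted p = 0.654). Pou3f2 was called for each type alone. In all 3 genes both libraries of the selected nuclei lay above both of the comparison. Sim1 was not tested here, since it chose the comparison nuclei. Against all other neurons it was at 617 and 515 CPM beside 24.5 and 22.2 CPM (log2 change 4.60, SE 0.16, adjusted p = 3.1e-181). Sim1 was not called when the 3 ZT8 nuclei were added (log2 change 5.14, adjusted p = 0.072) or for the Avp type alone (5.19, adjusted p = 0.158).

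Of 8 genes for regulation and handling of the peptide transcripts, 2 of 7 tested were called, both higher (median log2 change 0.46). Over all genes tested, 2.28% were called higher. Caprin2, at chr6:148842492-148896237 on the minus strand, encodes an RNA-binding protein that binds vasopressin mRNA in the rat. It stood at 447 and 517 CPM in selected nuclei, from 167 and 150 UMIs, and at 33.4 and 34.3 CPM in other Sim1 neurons. That is a log2 change of 3.82 (SE 0.17, adjusted p = 2.6e-107), the largest rise among the listed genes. It rose in the Oxt type alone (log2 change 2.80) and the Avp type alone (4.63), both called. Estrogen receptor beta, Esr2, rose by 2.83 on the log2 scale (SE 0.51, adjusted p = 2.1e-06) from 18 and 7 UMIs, 36.0% of them in 1 nucleus. It did not rise in the Avp type alone, where its log2 change was -0.37.

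Dynorphin was the co-expressed peptide whose gene rose. Pdyn was at 58.9 and 48.3 CPM in selected nuclei and 8.27 and 8.80 CPM in other Sim1 neurons (log2 change 2.66, SE 0.41, adjusted p = 8.1e-09). It was called for the Avp type alone (log2 change 3.57) and not for the Oxt type alone (1.44). Oprk1, the kappa opioid receptor that binds dynorphin, was at 32.1 and 93.1 against 19.2 and 13.9 CPM (log2 change 1.82, adjusted p = 1.7e-05), so its size differed between the libraries. Unlike Pdyn, it lay mostly in the Oxt type, with 37 UMIs there and 2 in the Avp type at ZT20. For the Avp type alone its log2 change was -1.07 and not called.

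Of the 16 listed peptides, 13 were tested against other Sim1 neurons: 1 rose and 6 fell, with a median log2 change of -1.41. Of all genes tested, 2.28% rose and 4.09% fell. Trh, the thyrotropin-releasing hormone of other PVN neurons, was at 0 UMIs in both libraries of selected nuclei and at 217 and 166 UMIs in other Sim1 neurons. Taking 3 counts per library as the floor, it was at least 3.44-fold lower (adjusted p = 3.1e-08), and it was not called for the Avp type alone (adjusted p = 0.17). Cartpt, Sst, Adcyap1, Vgf and Bdnf were the other peptide genes that fell, by 1.41 to 2.22 on the log2 scale. Crh, the stress hormone precursor, had 1 UMI in each library of selected nuclei and was too low to test.

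Some genes that make a vesicle's cargo were called, in both directions. Of 10 granin and processing genes, 1 rose and 3 fell against other Sim1 neurons (median log2 change -0.25), beside 2.28% and 4.09% of all genes tested. Pcsk1, the first convertase to cut prohormones, was at 147 and 238 CPM against 52 and 69.1 CPM (log2 change 1.65, SE 0.19, adjusted p = 1.8e-15). Its partner Pcsk2 was at 457 and 303 against 612 and 607 CPM (log2 change -0.69, adjusted p = 6.9e-04). Secretogranin II, Scg2, fell from 311 and 355 to 104 and 121 CPM (log2 change -1.57, SE 0.19, adjusted p = 9.0e-14), and Chgb also fell (log2 change -0.77). Of the 17 chaperone and unfolded protein response genes in the table, all were tested and none was called (median log2 change 0.23). Over all genes tested, 6.38% were called. The chaperone Hspa5 was at 155 and 155 CPM in selected nuclei and at 155 and 163 CPM in other Sim1 neurons (log2 change -0.03, adjusted p = 0.972). Xbp1, its regulator, was at 50.8 and 51.7 against 33.4 and 35.6 CPM (log2 change 0.57, adjusted p = 0.368).

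Transmitter genes gave 1 call among 8 tested (median log2 change -0.50), beside 6.38% called over all genes tested. Nos1, neuronal nitric oxide synthase, was at 131 and 121 CPM in selected nuclei and at 28.9 and 30.5 CPM in other Sim1 neurons (log2 change 2.09, SE 0.24, adjusted p = 4.9e-16). For the Oxt type alone the log2 change was 2.69, and for the Avp type alone it was -1.91 and not called. Slc17a6, the vesicular glutamate transporter of the hypothalamus, was at 225 and 134 against 236 and 236 CPM (log2 change -0.38, adjusted p = 0.248).

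Receptors and channels mostly moved down where they moved. Of 12 receptor genes tested, 2 rose and 4 fell (median log2 change -0.40), beside 2.28% and 4.09% of all genes tested. Nr3c1, the glucocorticoid receptor, was at 32.1 and 41.4 CPM against 115 and 105 CPM (log2 change -1.60, SE 0.28, adjusted p = 3.8e-07). The mineralocorticoid receptor Nr3c2 (log2 change -0.54, with an adjusted p of 0.101 without nuclei that lack Sim1) and the calcitonin receptor Calcr (-2.19) also fell. Agtr1a, the angiotensin receptor, had 0 UMIs in selected nuclei against 105 and 47, and the floor of 3 counts per library leaves no bound on its fold in replicate 2. Glp1r, the receptor for glucagon-like peptide 1, rose by 2.21 on the log2 scale (SE 0.66, adjusted p = 0.0172), from 5 and 8 UMIs. Its call was lost when nuclei without Sim1 were left out (adjusted p = 0.0807).

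Kcnmb4, a brain subunit of the large-conductance calcium-activated potassium channel, was at 107 and 121 CPM against 20.3 and 21.2 CPM (log2 change 2.45, SE 0.27, adjusted p = 1.2e-17). Of 17 excitability genes tested, 0 rose and 5 fell (median log2 change -0.17), beside 2.28% and 4.09% of all genes tested. Kcnn2 and Kcnn3, channels that slow repeated firing, fell by 1.03 and 1.14 on the log2 scale. Neither was called with at least 20 peptide UMIs and 0.5% (adjusted p = 0.0617 for Kcnn2 and 0.0795 for Kcnn3), and Kcnn2 was not called for the Oxt type alone (0.22). Kcnq5, a subunit of the M-type potassium channel, and the chloride exporter Slc12a5 fell by 0.77 and 0.75. Cnr1, the cannabinoid receptor, fell by 1.29 (adjusted p = 0.0358); without nuclei that lack Sim1 its adjusted p was 0.0782.

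Clock genes could be compared with other neurons at ZT20 only. Of 19 core clock genes, 0 rose and 2 fell against other Sim1 neurons (median log2 change -0.45). Of all genes tested, 2.28% rose and 4.09% fell. Npas2, a partner of BMAL1, was at 40.1 and 13.8 against 61.6 and 53.4 CPM (log2 change -1.03, adjusted p = 0.0316). It was not called without nuclei that lack Sim1 (adjusted p = 0.176). Rorb, also a thalamic marker, was at 126 and 65.5 against 255 and 228 CPM (log2 change -1.32, adjusted p = 5.4e-09). Of 10 immediate early genes tested, Fosl2 rose and none fell (median log2 change -0.71); it had 11 and 8 UMIs in selected nuclei (log2 change 2.74, adjusted p = 1.0e-04). Over all lists, 12 of 122 genes tested rose and 21 fell (median log2 change -0.21), beside the same 2.28% and 4.09%. DESeq2 gave an adjusted p for 27 of these 33 and called 10 of them; those it did not call included Otp, Arnt2, Oprk1, Pcsk2, Chgb, Vgf, Sst, Cartpt, Adcyap1, Calcr, Nr3c2, Kcnn2, Kcnn3, Slc12a5, Cnr1 and Npas2. With at least 20 peptide UMIs and 0.5%, edgeR called 22 of the 33 and not Agtr1a, Arnt2, Calcr, Cartpt, Chgb, Cnr1, Kcnn2, Kcnn3, Npas2, Nr3c2 or Slc12a5.

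**Figure D4:**
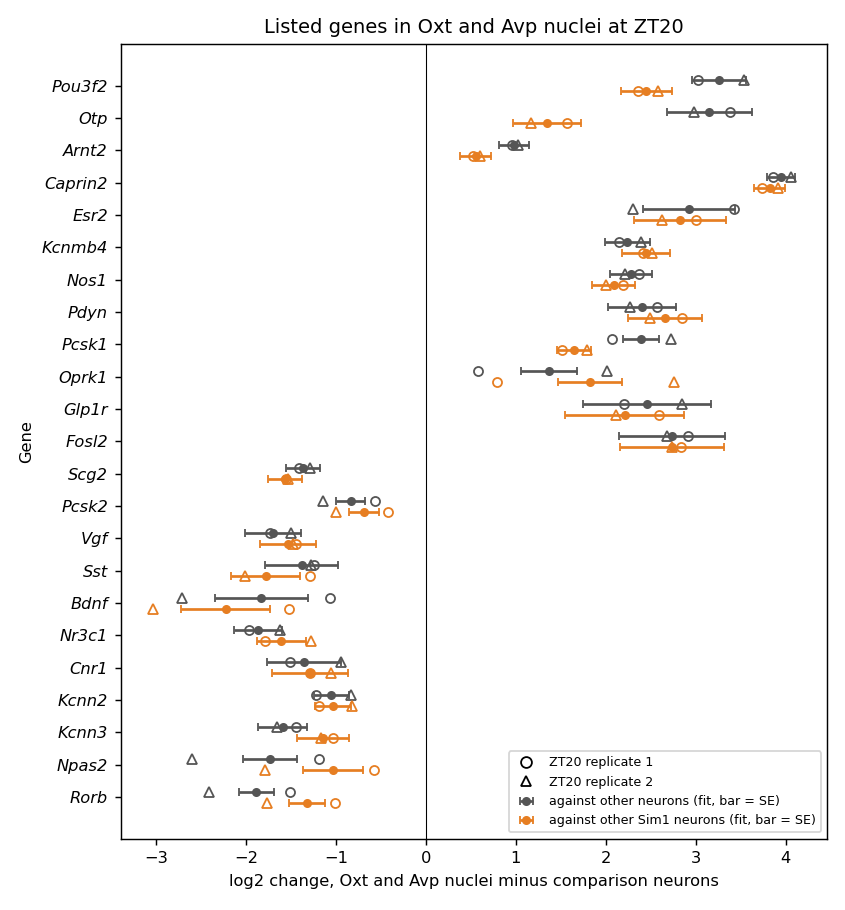
Filled points give edgeR log2 changes with their SE for 23 listed genes, selected nuclei against other neurons (grey) and against other Sim1 neurons (orange); open circles and triangles give each ZT20 library's own log2 ratio. The rises of Caprin2, Pou3f2, Kcnmb4, Nos1 and Pcsk1 and the falls of Scg2, Vgf and Nr3c1 appear in both libraries and against both comparison groups.

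Outside the lists, the genes with the smallest p against other Sim1 neurons included regulators of secretion, potassium current and cyclic AMP. Fign, a microtubule-severing enzyme, was at 741 and 945 CPM in selected nuclei and 93.7 and 81.5 CPM in other Sim1 neurons (log2 change 3.25, SE 0.16, adjusted p = 3.1e-87). Cadps2, a factor for dense-core vesicle release, rose by 2.37 and the potassium channel Kcnh1 by 2.30 on the log2 scale. Pde4b, a cyclic AMP phosphodiesterase, was at 3694 and 4272 against 1176 and 1073 CPM (log2 change 1.82, adjusted p = 2.5e-29). Dpyd, Foxp2, Stxbp6, Grm3, Angpt1 and Plpp4 completed this group, with log2 changes of 1.84 to 2.19. Angpt1 was called for the Avp type alone (log2 change 3.08) but not for the Oxt type alone (0.085), nor without nuclei that lack Sim1 (adjusted p = 0.0926).

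The 10 genes with the smallest p among those that fell follow. Trpm3, a heat-sensitive cation channel, was at 126 and 65.5 CPM against 952 and 903 CPM (log2 change -3.26, SE 0.20, adjusted p = 3.5e-56). The muscarinic receptor Chrm3 fell by 3.36 and the serotonin receptor Htr2c by 2.80 on the log2 scale. Mgat4c, Tenm2, Pcdh11x, Rgs6, Unc13c, Arpp21 and Opcml fell by 1.87 to 3.18. The UMIs left were uneven, since 1 nucleus held 40.9% of those of Trpm3, 44.7% of Tenm2, 75% of Rgs6 and 60% of Arpp21. Rgs6 and Arpp21 were not called without nuclei that lack Sim1 (adjusted p = 0.455 and 0.658). They were also not called by DESeq2 (0.550 and 0.299) or without a filter on low counts (0.149 and 0.879). The same held with at least 5000 UMIs per nucleus (0.423 and 0.568) and with the 3 ZT8 nuclei added (0.196 and 0.219).

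The 2 types differed from each other well beyond their peptides. Avp type nuclei held more of the Notch coactivator Maml3, the transcription factor Ebf3, the imprinted gene Dlk1 and the peptides Pdyn and Tac1. Oxt type nuclei held more Nos1, Sox5 and the amidating enzyme Pam. Sums over 11 and 10 Avp type nuclei were compared with 15 and 13 Oxt type nuclei of the same ZT20 libraries. Of 3328 genes that passed the count filter, 8.65% were called, 118 higher in the Avp type (3.55%) and 170 lower (5.11%). DESeq2 called 54 genes, and leaving out nuclei with the highest doublet scores left 130 edgeR calls. Prior degrees of freedom were infinite in the main fit. They were 10.4 without those nuclei and 22.1 among nuclei with a Sim1 UMI, so calls lost there are not on the same footing. The Oxt type held 259 and 46 thalamic marker UMIs and the Avp type 14 and 27, and the part of these in the difference was not tested. Single Oxt type nuclei of replicate 1 held 109, 51 and 41 of the 259. These nuclei were also deep, with 45379, 54715 and 20759 of the 244945 UMIs of that library's Oxt type nuclei.

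Over all genes tested, 3.55% were higher and 5.11% lower in the Avp type, with a median log2 change of -0.02. Listed genes gave 5 higher and 5 lower among 51 tested (median log2 change 0.03). DESeq2 gave an adjusted p for 4 of these 10 and called Caprin2, but not Sim1, Thrb or Pam. Nos1 was at 0 and 17 CPM in Avp type sums, from 0 and 2 UMIs, and at 199 and 199 CPM in Oxt type sums (log2 change -4.47, SE 0.65, adjusted p = 6.5e-10). It was found in 21 of 28 Oxt type and 1 of 21 Avp type nuclei at ZT20, or 31.9% and 0.829% after thinning to 2000 UMIs. Reln, an extracellular signalling protein, was at 0 and 8.5 against 114 and 109 CPM (log2 change -4.51, SE 0.94, adjusted p = 5.5e-05), in 8 of 28 Oxt type nuclei. A single nucleus held 18 of the 28 Oxt type UMIs in replicate 1, and another held 14 of 18 in replicate 2. Dab1, the intracellular adaptor of the reelin receptors, went the other way and rose in the Avp type (log2 change 2.72, adjusted p = 3.1e-12).

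Caprin2 was at 816 and 969 CPM in the Avp type and 273 and 217 CPM in the Oxt type (log2 change 1.85, SE 0.34, adjusted p = 1.8e-06). It was found in 21 of 21 Avp type and 19 of 28 Oxt type nuclei, and thinned shares were 77.9% and 32.1%. Thyroid hormone receptor beta, Thrb, was at 359 and 433 against 89.5 and 109 CPM (log2 change 1.99, adjusted p = 1.4e-06). Both libraries of the Avp type lay above both of the Oxt type for each gene. Sim1 was also higher, at 1298 and 629 against 301 and 483 CPM (log2 change 1.26, adjusted p = 0.00352), but was not called among nuclei with a Sim1 UMI (adjusted p = 0.152) or by DESeq2 (0.319).

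Pdyn stood at 122 and 93.5 CPM in the Avp type, against 28.5 and 18.1 CPM in the Oxt type (log2 change 2.17, SE 0.66, adjusted p = 0.0162). Tac1, the precursor of substance P, was at 81.6 and 119 against 16.3 and 12.1 CPM (log2 change 2.69, SE 0.81, adjusted p = 0.0131). Neither was called without the highest doublet scores, at log2 changes of 1.68 for Pdyn (adjusted p = 0.433) and 2.71 for Tac1 (0.268). Pdyn was also not called among nuclei with a Sim1 UMI (adjusted p = 0.21). Pam, which amidates both hormones, was lower in the Avp type at 261 and 357 against 643 and 683 CPM (log2 change -1.11, adjusted p = 0.0131). The prolactin receptor Prlr (log2 change -1.85, adjusted p = 0.0322) and Kcnn2 (-1.81, adjusted p = 0.00547) were lower too. Without the highest doublet scores, Pam (adjusted p = 0.0701) and Kcnn2 (0.0574) were not called, and among nuclei with a Sim1 UMI Prlr was not (0.0649).

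Some listed genes were too low to test and are given as UMIs only. Esr2 had 18 and 6 UMIs in the Oxt type and 0 and 1 in the Avp type, while Esr1, estrogen receptor alpha, had 3 and 3 against 13 and 7. Oprk1 had 12 and 25 against 0 and 2 UMIs. Penk, proenkephalin, had 18 and 1 against 0 and 0, with 57.9% of its UMIs in 1 nucleus.

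Maml3 marked every Avp type nucleus (21 of 21), against 10 of 28 Oxt type nuclei, at thinned shares of 88.4% and 12.0%. Its level was 1584 and 1223 CPM against 69.1 and 72.5 CPM (log2 change 4.30, SE 0.39, adjusted p = 2.2e-24). Ebf3 was at 416 and 323 against 20.3 and 12.1 CPM (log2 change 4.43, SE 0.47, adjusted p = 3.3e-18). Galntl6, a glycosyltransferase, was at 9143 and 8191 against 1070 and 755 CPM (log2 change 3.26, adjusted p = 2.3e-15). Dlk1, Trpc5, Zfp804a, Angpt1, St6galnac5 and Cdh9 also rose in the Avp type, by 2.69 to 4.17 on the log2 scale. St6galnac5 was not called without the highest doublet scores (adjusted p = 0.0942) or among nuclei with a Sim1 UMI (0.0557). Several of these loci overlap other annotated genes; Maml3, at chr3:51685907-52105076, holds 11 on its own strand, whose reads the counting may have shared.

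Thsd7b had the smallest p among genes higher in the Oxt type, at 594 and 689 CPM against 24.5 and 17 CPM in the Avp type (log2 change -4.89, SE 0.48, adjusted p = 1.4e-20). The transcription factor Sox5 was at 643 and 326 against 8.16 and 25.5 CPM (log2 change -4.77, adjusted p = 2.4e-17). Galnt14 was at 212 and 375 against 8.16 and 0 CPM, in 21 of 28 and 1 of 21 nuclei (log2 change -5.87, adjusted p = 2.1e-15). The NMDA receptor subunit Grin2a, Gpc6, Ntm and Egfem1 were lower in the Avp type by log2 changes of -3.05 to -3.85. Cntn5, Gpc5 and the cyclic GMP-dependent kinase Prkg1 were also called, but not with another scaling of the same counts (adjusted p = 0.433, 0.143 and 0.146) or among nuclei with a Sim1 UMI (0.375, 0.0967 and 0.287).

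**Figure D5:**
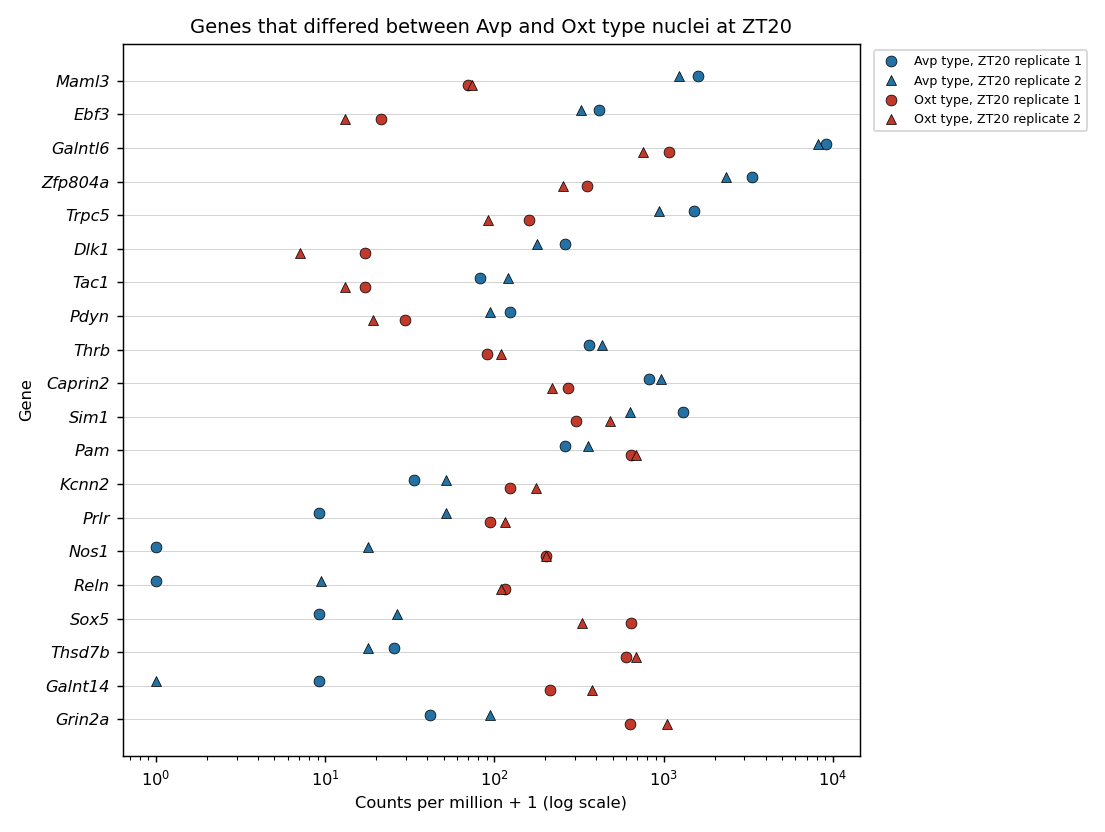
Points give CPM + 1 on a log scale for 20 genes called between the types, for each ZT20 library (circles, replicate 1; triangles, replicate 2) in Avp type (blue) and Oxt type (red) sums. For each gene drawn, both values of one type lie above both of the other.

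Day and night could not be tested within these neurons, since the ZT8 libraries held 0 and 3 of them. The 3 ZT8 nuclei, all Oxt type, gave 46596 UMIs beside Oxt and Avp. In CPM of those UMIs, Caprin2 was at 300.5 (14 UMIs, exact Poisson 95% interval 164 to 504), with 276 and 219 in the Oxt type sums of the ZT20 libraries. Nos1 was at 129 (47.3 to 280.3), with 202 and 201 at ZT20. Fign was at 1309 (1001 to 1682), with 675 and 1169, and Pde4b at 3198 (2705 to 3754), with 2689 and 3629. Maml3, the Avp type gene, was at 42.9 (5.20 to 155), with 70.0 and 73.1. Reln was at 0 UMIs, which allows up to 79.2 as an exact upper bound, with 115 and 110 at ZT20. A single library of 3 nuclei has no replicate check.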

How the data were processed

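For each library the authors deposited a matrix of unnormalized UMI counts (57970649 to 69223344 UMIs, 6453 to 9413 barcodes in all), made with Cell Ranger 7.0.0 per the file headers. Per the submitters' processing notes, Cell Ranger, STAR 2.6 and mm10 were used. Intron counting, strand use and barcode calling are not given in the sources used here. Pairs of libraries shared 10 to 25 barcodes, none of them a selected nucleus. Members, gene lists and tests were chosen with earlier results of these data known.

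Counts were added up within each library and class, with Oxt and Avp left out of library sizes; classes needed 5 nuclei per library. Oxt, Avp and the 7 neuronal genes of the rule were not tested. edgeR 4.0.16 in R 4.3.3 was used with filterByExpr, TMM factors and robust quasi-likelihood F tests. P-values were adjusted by Benjamini-Hochberg across every tested gene (threshold 0.05). The fit was run on simulated sums with the same spread for every gene and no uneven nuclei. That run therefore does not measure the error rate in these data. CPM are scaled by TMM in the fits. The labels do not say that libraries came from separate cohorts, so p-values cover no spread between cohorts. In the main fits edgeR's prior degrees of freedom were infinite (median over genes). The p-values there rest on a spread shared across genes, and a gene's own spread between the libraries had little weight. DESeq2 1.42.0 was an alternative. Named genes are those of 11 lists, and outside them up to 10 per direction with the smallest p, a log2 change of at least 1 and the same sign in both libraries, passing over Gm and Rik names. Scrublet (scanpy 1.11.5) marked 0 or 1 barcodes per library by its automatic threshold and so did not work; doublets were kept, and the highest scores (326 to 702 barcodes per library) were left out as an alternative. Oligodendrocyte nuclei were barcodes with fewer than 5 neuronal genes and at least 10 oligodendrocyte marker UMIs. Thinned shares are hypergeometric expectations at 2000 UMIs. Not every gene of the deposited table is reported here.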

Additional observations from a re-analysis of the deposited data

Results flagged for a closer look

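Peptide-rich barcodes were also found outside the neuron rule, in data that no comparison used: 11 in ZT20 replicate 1 and 13 in ZT20 replicate 2, and 0 in both ZT8 libraries. They passed the thresholds of 10 UMIs and 0.2% for Oxt plus Avp but not the rule for neurons, and 21 of the 24 held fewer than 2000 UMIs (median 1072). Oxt was the larger count in 23. Peptide shares ran from 0.234 to 22.4% of a barcode's UMIs, and in 10 barcodes the share exceeded the highest among the selected nuclei (5.13%). None held a Sim1 UMI. Whether they were nuclei, fragments of neurons or droplets with free RNA was not tested.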

How the results depend on the processing

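No paired analysis was possible because the ZT8 libraries held 0 and 3 selected nuclei; the fits at ZT20 already use library as a block, with 1 residual degree of freedom. For that reason ZT20 against ZT8 within these neurons, and its difference from other neurons, was not run. The fit without glial marker UMIs and the stricter type comparison were not run, since ZT20 replicate 2 kept too few nuclei. The share difference between ZT20 and ZT8 (0.585 percentage points) kept its direction under every alternative, at 0.258 to 0.608 points for shares of neurons or kept barcodes, 5.56 points of Sim1 neurons and 1.10 points at a looser threshold of 5 UMIs and 0.1% chosen after seeing the data. Leaving out 1 library gave 0.546 to 0.625.

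Against other neurons, 1079 genes were called; DESeq2 called 426, Slc17a6 neurons without Tcf7l2 or Prkch as comparison gave 708, and, chosen after seeing the data, the Oxt type alone gave 520 and the Avp type alone 0 by edgeR (1432 at an unadjusted p under 0.05). Against other Sim1 neurons, 851 became 243 by DESeq2, 484 with at least 20 peptide UMIs and 0.5%, 454 for the Oxt type alone and 197 for the Avp type alone. For the Avp type alone, prior degrees of freedom were 2.59 against other neurons and 5.20 against other Sim1 neurons, and infinite in both main fits. Between the types, 288 became 54 by DESeq2 and 130 without the highest doublet scores. Prior degrees of freedom were 17.1 in the fit with 708 calls, 15.7 in that with 484 and 10.4 in that with 130. All 54 and 243 DESeq2 calls and 419 of the 426 were also called by edgeR, in the same direction. The median log2 change over all genes against other neurons was -0.15, and 0.27 by DESeq2 and -0.63 without a filter on low counts.

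Direction turned in few named genes. For the Avp type alone, log2 changes against other neurons were -0.33 for Esr2, -0.37 for Pam, -1.73 for Nos1 and -1.55 for Oprk1, and against other Sim1 neurons -0.37, -1.91 and -1.07 for Esr2, Nos1 and Oprk1. Against Slc17a6 neurons, Rnf220 turned to 0.17, and Tcf7l2 to 11.26 because that comparison group was chosen to lack it. Hspa5, not called in these comparisons, was at 0.023 with other scaling factors, 0.022 by DESeq2, 0.088 at the stricter threshold and 0.13 for the Avp type alone against other neurons, and at 0.094 at the stricter threshold and 0.12 for the Avp type alone against other Sim1 neurons. Its ratios with 1 ZT20 library left out ran from -0.026 to 0.00087 against other neurons and from -0.055 to 0.012 against other Sim1 neurons.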
